A study of Saccharomyces cerevisiae with 8 samples.

Results

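The genes described here encode the DNA replication machinery of the budding yeast Saccharomyces cerevisiae: the replicative polymerases, the sliding clamp and its loader, the helicase and its cofactors, the origin-binding complex, and factors that mature or guard the fork. They were taken by name from a list of 45 genes. All 45 were found among the 6225 genes on the array, each by 1 probe, and all were well above background at every spot on all 8 arrays. CDC54, CDC46 and CDC47 are the older names of genes also called MCM4, MCM5 and MCM7.

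Replication begins at origins, where the origin recognition complex (ORC) and Cdc6 load the MCM helicase onto DNA in G1 phase. Kinases then recruit Cdc45 and the GINS complex to activate the helicase, and polymerases alpha, epsilon and delta copy the strands with the help of the clamp PCNA. In this yeast many polymerase, clamp and fork genes are transcribed in a burst at the G1/S boundary by the factors MBF and SBF, while most MCM genes and CDC6 are transcribed earlier, between mitosis and G1.

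Total RNA was measured from 4 groups of cultures of strain BY4147, all grown in YPD medium to exponential phase, with 2 biological replicates and thus 2 arrays in each group. The groups were a strain with an Htz1 deletion treated with 0.4 M NaCl, a hyperosmotic stress, for 20 minutes, the same strain without salt, wild type treated with salt in the same way, and wild type without salt. HTZ1 encodes the histone H2A variant H2A.Z, which sits in nucleosomes beside many promoters. The labels do not say how the deletion was made or whether the deletion cultures came from more than 1 clone.

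The deleted gene separated the strains. HTZ1 was well above background on 0 of 4 deletion arrays and on 4 of 4 wild-type arrays. Signals are given on a scale where 100 is the 75th percentile of an array, and a value can be set against the same gene on other arrays but not against other genes. Replicates correlated across genes at r = 0.987 to 0.993. All arrays lay on 1 slide, with wild type in 1 row and the deletion in the other, and with salt and no salt in separate columns, so position on the slide and group cannot be told apart. The cultures were not synchronised, so fewer cells in S phase and less transcript per cell cannot be told apart in any value below.

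Salt went with lower transcript of a large share of the replication genes in both strains. In the deletion strain 29 of 45 genes fell and 0 rose at limma adjusted p under 0.05, against 16 that fell and 0 that rose in wild type. The fallen genes made up 64.4% of the 45 in the deletion strain, where 29.1% of all tested genes fell and 29.3% rose. In wild type they made up 35.6%, where 25.7% of all tested genes fell and 31.2% rose. The median log2 change of the 45 was -0.61 in the deletion strain and -0.33 in wild type, beside 0.01 and 0.07 over all 5394 genes tested. More than 2-fold falls numbered 11 in the deletion strain and 4 in wild type, and POL30 fell furthest in both.

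Of the 29 genes that fell in the deletion strain, 15 (51.7%) also fell in wild type, and these were 93.8% of the wild-type list. The 14 that passed only in the deletion strain were CDC21, CDC6, MCM10, MCM6, ORC2, ORC3, POL2, PSF2, PSF3, RFA3, RFC2, RFC3, RFC4 and SLD3, and SLD5 passed only in wild type. Across the 45 genes the salt changes of the strains, which share no array, had r = 0.90. This is a correlation across genes, which are not independent replicates. The same value over all tested genes was not computed, so it is not shown to be particular to the 45. Of the 29 calls in the deletion strain, 21 were kept in every fit that left out 1 array, and POL2, RFC1, RFC5, MCM6, PSF3, ORC2, CDC6 and SLD3 were lost in at least 1. Of the 16 in wild type 8 were kept, and POL3, POL32, RFC1, RFC5, SLD5, ORC1, ORC6 and TOF1 were lost in at least 1. Without the first salt-treated wild-type array the wild-type count was 8, and with normexp background correction it was 9. Median scaling gave 29 genes lower in the deletion strain and 24 in wild type, and the authors' values gave 28 in the deletion strain and 24 in wild type. With replicate number as a block the wild-type count was 25, with RFA1 called higher (adjusted p = 0.028).

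**Figure D1:**
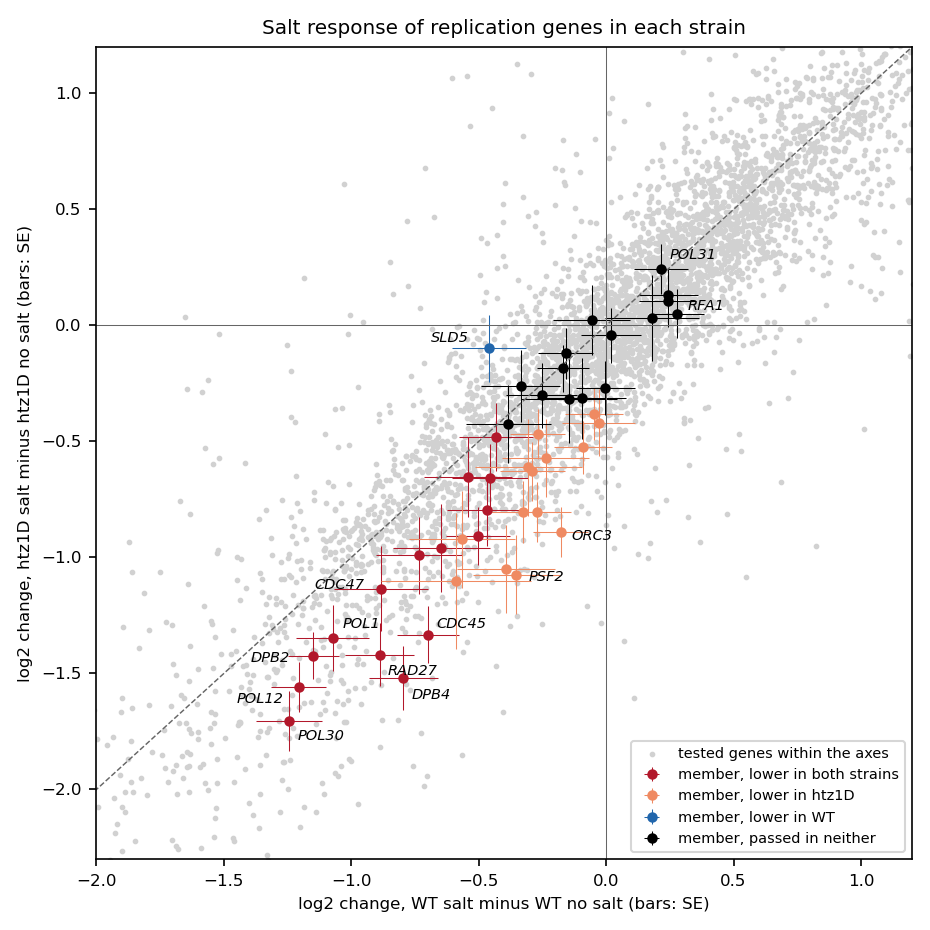
Salt response of each replication gene in the htz1 deletion strain (vertical axis) against wild type (horizontal axis), as log2 change with its standard error, over all tested genes that lie within the axes (grey). Colours mark in which strains a gene passed at adjusted p under 0.05. Most of the 45 points lie in the lower left, and 40 of 45 lie below the dashed line of equal change. The change in the deletion strain less that in wild type had a median of -0.07 over all tested genes. The count below the line moved with the processing. It was 35 with median scaling, 31 with quantile scaling, 29 in the authors' values and 44 with normexp background correction.

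The deletion was set against wild type at each salt condition. With salt, 20 of 45 genes (44.4%) were lower in the deletion strain and 0 were higher, where 16.2% of all tested genes were lower and 5.77% higher. Without salt, 3 of 45 (6.67%) were lower and 0 higher, where 6.32% of all tested genes were lower and 7.36% higher, so that this share was close to that of all genes. The 3 genes were TOF1, PRI1 and POL31, and all 3 were also among the 20 with salt. The median log2 difference of the 45 was -0.44 with salt and -0.23 without salt, beside -0.07 and -0.04 over all genes tested.

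These counts rested on few arrays and on the scaling. Leaving out 1 array gave 7 and 5 genes lower with salt when it was the first or the second salt-treated deletion array, and 11 and 5 when it was the first or the second salt-treated wild-type array. DPB4, CDC45, ORC3, CDC6 and TOF1 were kept in each such fit, and the other 15 were lost in at least 1. With normexp background correction 1 gene passed with salt, DPB4, and 0 without salt. In the authors' values the log2 differences with salt were smaller, at -0.345 for CDC45, -0.445 for ORC3, -0.425 for TOF1 and -0.25 for CDC6, and that of CDC6 did not pass (limma adjusted p = 0.088). Without salt, 5 genes passed without the first unstressed deletion array and 0 without either of the unstressed wild-type arrays, and 11 passed with the replicate block, where PSF3 was higher (adjusted p = 0.033). Dividing each array by its median in place of its 75th percentile gave 8 genes lower with salt, and moved the median of all genes from -0.07 to 0.09. Both scalings shift all genes of an array alike, so the median of the 45 relative to all genes, at -0.37, cannot differ between them. It was -0.26 with quantile scaling and -0.20 in the authors' values. The split of all genes with salt was 311 higher and 872 lower in the main fit and 605 higher and 504 lower with median scaling.

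**Figure D2:**
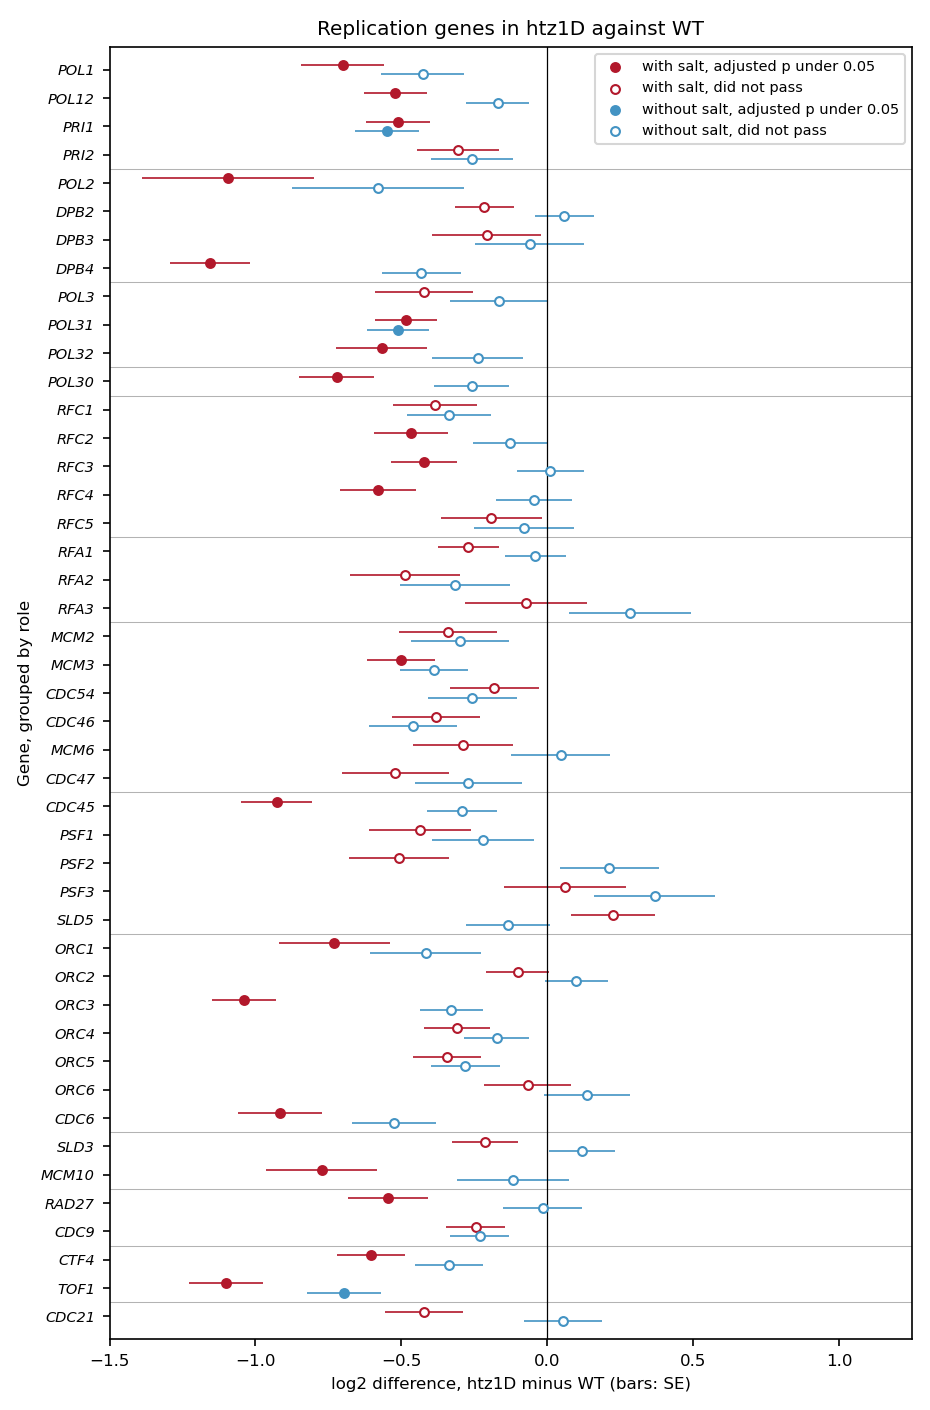
Log2 difference of each replication gene, htz1 deletion minus wild type, with salt (red) and without salt (blue), with its standard error and grouped by role. Filled points passed at adjusted p under 0.05. With salt 20 points are filled and 43 of 45 lie left of 0, and without salt 3 are filled and 35 of 45 lie left of 0. The median over all tested genes was also left of 0, at -0.07 with salt and -0.04 without. The counts left of 0 moved with the processing. With salt the count was 40 with median scaling, 38 with quantile scaling, 37 in the authors' values and 43 with normexp background correction. Without salt it was 32, 34, 34 and 24 in that order.

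Whether the salt response itself differed between strains was tested by the interaction, the log2 salt change of the deletion strain less that of wild type. For 0 of 45 genes did it pass in limma at adjusted p under 0.05, where 0.89% of all tested genes were more negative in the deletion strain and 0.111% more positive. At unadjusted p under 0.05 there were 10 genes, DPB4, POL30, RFC3, RFC4, CDC45, PSF2, ORC3, MCM10, RAD27 and CDC21, all with a more negative value in the deletion strain. These were 22.2% of the 45, where at that threshold 9.9% of all tested genes were more negative in the deletion strain and 2.21% more positive. With the replicate block DPB4 (adjusted p = 0.0378) and ORC3 (adjusted p = 0.0402) passed. By replicate number the interaction of DPB4 was -0.73 and -0.72, and that of ORC3 was -0.74 and -0.68. Without the block, no gene that passed in the deletion strain alone was shown to respond differently there. The 95% interval of the interaction was -0.32 to 0.40 for PRI1 and -0.35 to 0.32 for CDC9, and for MCM2 it ran from -0.60 to 0.51.

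**Figure D3:**
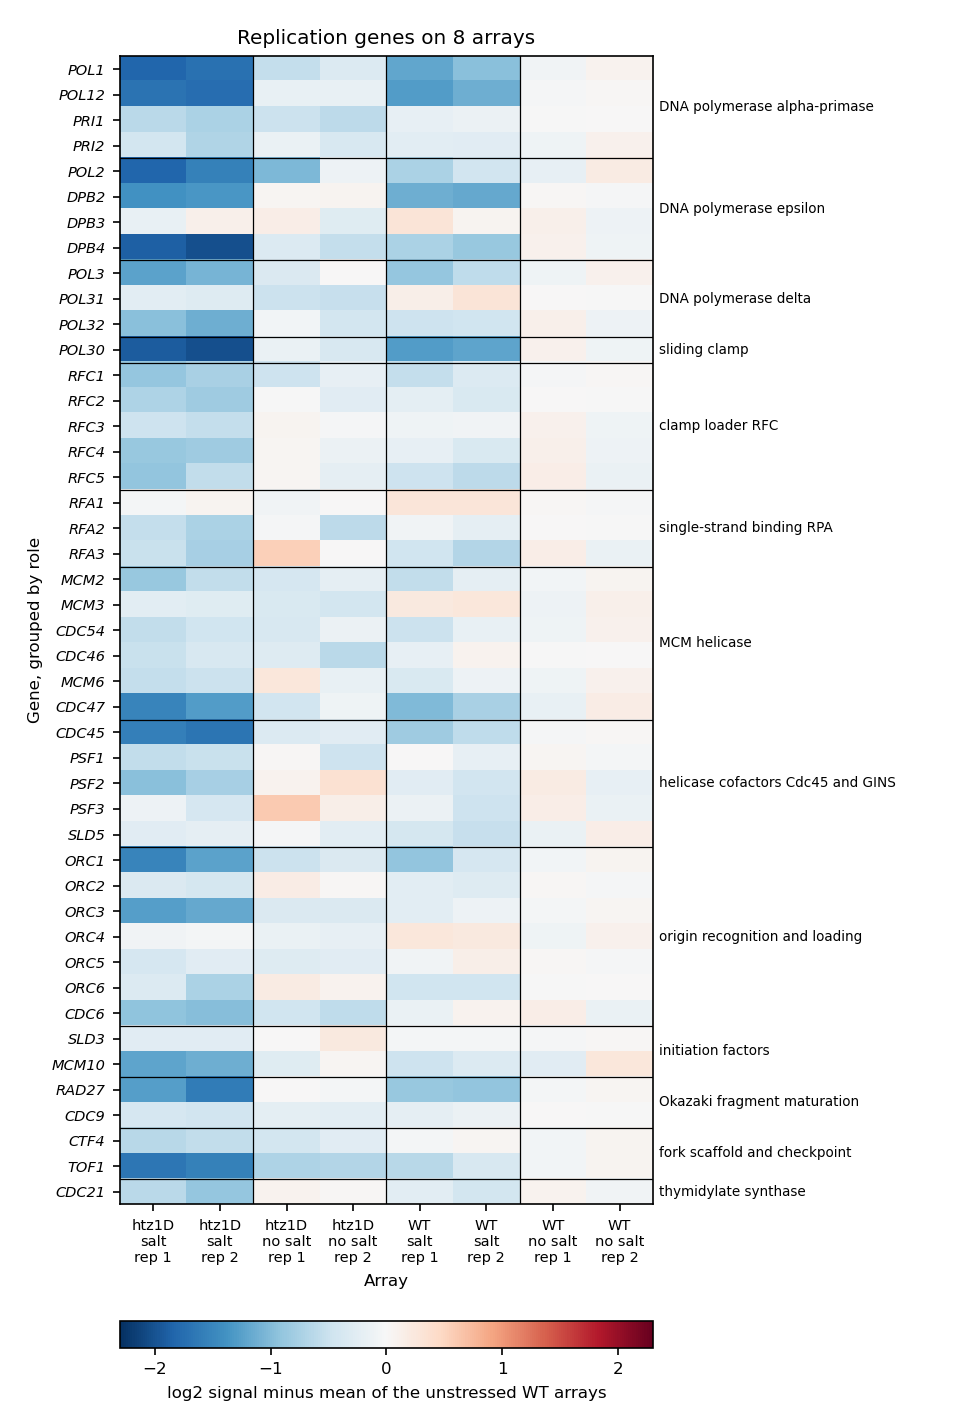
Log2 signal of the 45 replication genes on each of the 8 arrays, minus the mean of the 2 unstressed wild-type arrays, with genes in rows grouped by role. Blue is lower and red higher. POL1, POL12, DPB2, DPB4, POL30, CDC45, TOF1 and RAD27 are blue on all 4 salt-treated arrays, darkest in the deletion strain.

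Polymerase alpha with its primase makes the short primers from which the other polymerases start. POL12, its B subunit, had signals of 37.7 and 36.0 in the deletion strain with salt and 108.6 and 108.1 without, and 50.1 and 55.7 in wild type with salt and 119 and 124 without. In both strains the salt-treated arrays lay far below the untreated ones, and the salt-treated deletion arrays were the lowest of all. POL12 fell with salt 2.94-fold in the deletion strain (log2 -1.56, SE 0.11, limma adjusted p = 1.97e-05) and 2.31-fold in wild type (-1.21, SE 0.11, adjusted p = 8.27e-05).

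POL1, the catalytic subunit, had signals of 11.7 and 12.6 in the deletion strain with salt and 28.5 and 33.6 without, and 18.2 and 21.5 in wild type with salt and 39.1 and 44.2 without. No 2 groups overlapped. Salt lowered it 2.55-fold in the deletion strain (log2 -1.35, SE 0.14, limma adjusted p = 0.000154) and 2.10-fold in wild type (-1.07, SE 0.14, adjusted p = 0.000552). With salt the deletion strain was lower than wild type in both POL1 (-0.70) and POL12 (-0.52). Both of these calls were lost without the second salt-treated wild-type array or either salt-treated deletion array, and with normexp background correction. That of POL1 was also lost with quantile scaling and in the authors' values, and that of POL12 with median scaling. Over the 17 alternatives the log2 difference ran from -0.82 to -0.175 for POL1 and from -0.60 to -0.32 for POL12. Without salt neither passed, though POL1 (-0.43) did under the replicate block (adjusted p = 0.0169).

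The primase genes differed in pattern from the polymerase genes of the same complex. PRI1, the catalytic primase subunit, had signals of 33.9 and 31.3 in the deletion strain with salt and 36.9 and 33.9 without, and 45.6 and 47.2 in wild type with salt and 51.4 and 52.1 without. Every deletion array lay below every wild-type array, and within a strain the salt-treated and untreated arrays lay close together. PRI1 was lower in the deletion strain 1.43-fold with salt (log2 -0.51, SE 0.11, limma adjusted p = 0.0168) and 1.46-fold without salt (-0.55, SE 0.11, adjusted p = 0.0187). The call with salt was lost without any 1 of the 4 salt-treated arrays. The call without salt was lost without either unstressed wild-type array or the second unstressed deletion array. Both calls were also lost with normexp background correction, and the call with salt was lost with median scaling. The salt changes of PRI1 did not pass, at -0.12 in the deletion strain and -0.16 in wild type. PRI2, the large primase subunit, passed in no comparison, with pairwise log2 differences between -0.31 and -0.25.

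Polymerase epsilon copies the leading strand. DPB4, a small histone-fold subunit that is also part of a chromatin remodelling complex, had signals of 26.6 and 24.1 in the deletion strain with salt and 78.5 and 67.1 without, and 59.1 and 53.8 in wild type with salt and 105.1 and 91.2 without. The 4 groups did not overlap, and the salt-treated deletion arrays stood far below the rest. Salt lowered DPB4 2.87-fold in the deletion strain (log2 -1.52, SE 0.14, limma adjusted p = 6.64e-05) and 1.74-fold in wild type (-0.80, SE 0.14, adjusted p = 0.00195). In salt-treated cultures DPB4 was 2.23-fold lower in the deletion strain than in wild type (-1.16, SE 0.14, adjusted p = 0.00231). This was the one difference between strains kept under all 17 alternative settings. Without salt the difference was -0.43 (adjusted p = 0.0779, and 0.0147 with the replicate block).

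DPB2, the essential second subunit of polymerase epsilon, had signals of 12.0 and 12.6 in the deletion strain with salt and 32.7 and 33.3 without, and 14.5 and 14.1 in wild type with salt and 32.3 and 31.0 without. The strains were close to each other at each salt condition. It fell with salt 2.68-fold in the deletion strain (log2 -1.42, SE 0.10, limma adjusted p = 2.15e-05) and 2.22-fold in wild type (-1.15, SE 0.10, adjusted p = 7.45e-05), and neither difference between strains passed (-0.22 with salt and 0.06 without).

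POL2, the catalytic subunit, had signals of 14.2 and 17.1 in the deletion strain with salt and 24.3 and 45.9 without, and 30.0 and 36.7 in wild type with salt and 43.9 and 56.8 without. The replicates of the unstressed deletion cultures lay wide apart, wider than for any other of the 45 genes, and one of them overlapped the unstressed wild type. POL2 fell 2.15-fold with salt in the deletion strain (log2 -1.10, SE 0.29, limma adjusted p = 0.0143), a call lost without the first salt-treated deletion array (adjusted p = 0.076). In wild type its change of -0.59 did not pass (adjusted p = 0.126, and 0.0224 with the replicate block). With salt POL2 was 2.13-fold lower in the deletion strain than in wild type (-1.09, SE 0.29, limma adjusted p = 0.0372). This call was lost without any 1 of the 4 salt-treated arrays. It was also lost with normexp background correction, quantile scaling, median scaling and no filter on dim probes, and in the authors' values. Over the 17 alternatives the difference ran from -1.24 to -0.61. DPB3, the other small histone-fold subunit, passed in no comparison, with pairwise log2 differences between -0.21 and 0.18.

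**Figure D4:**
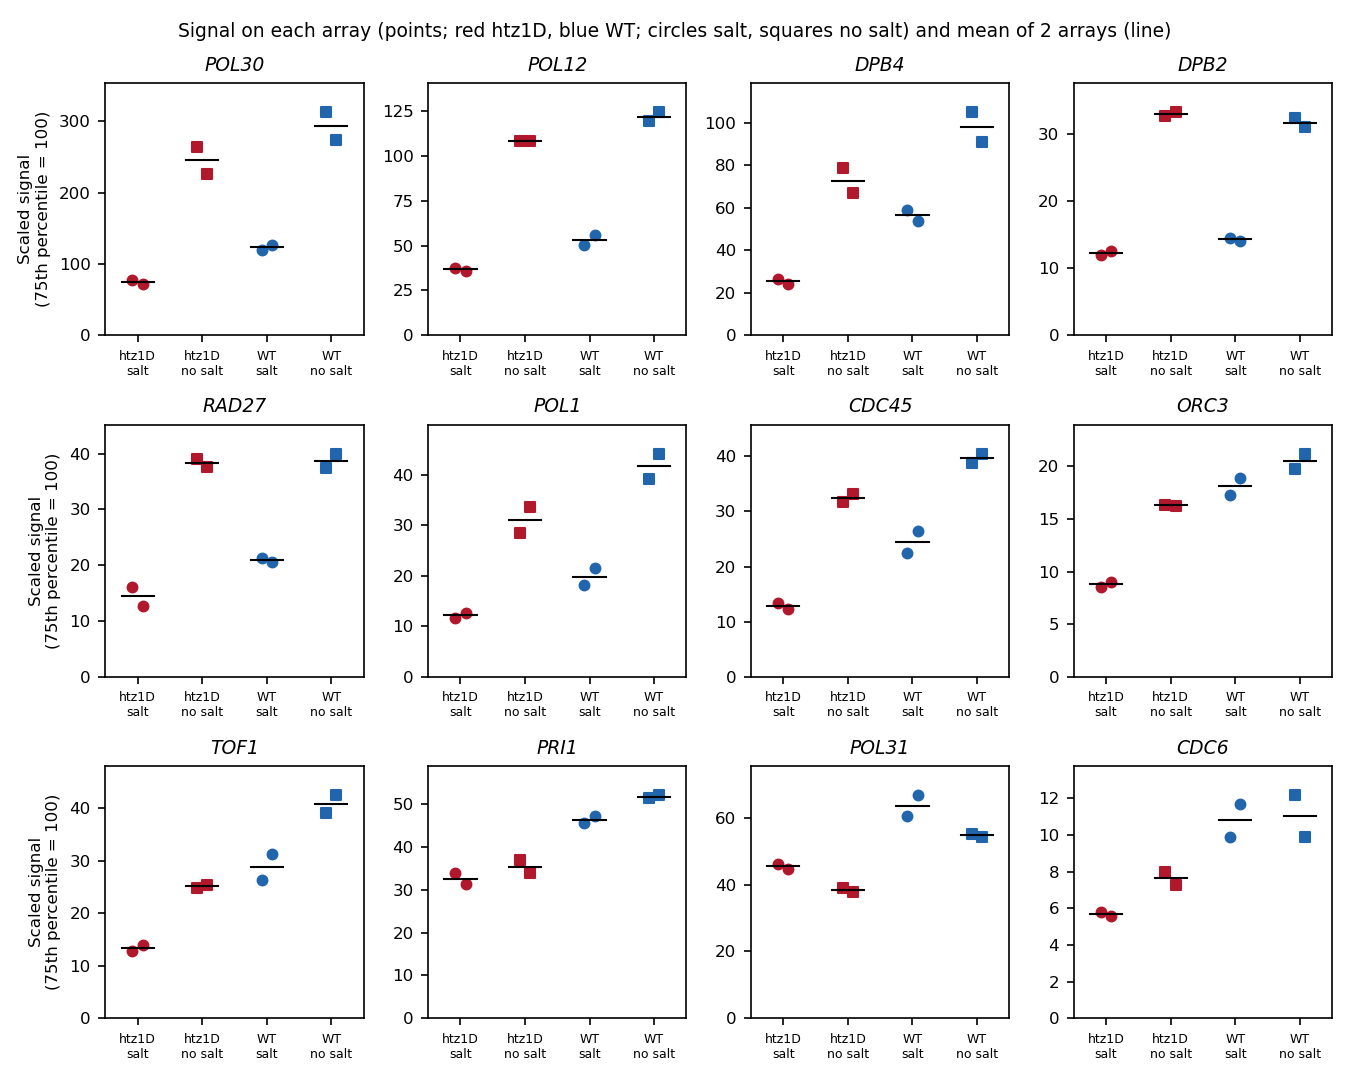
Signal of 12 replication genes on each array, on the scale where 100 is the array's 75th percentile (linear axes from 0, one scale per gene). Points are arrays, with the deletion in red, wild type in blue, salt as circles and no salt as squares, and lines are means of 2 arrays. The salt-treated deletion arrays are the lowest in every panel except that of POL31. In the panels of ORC3, TOF1, PRI1, POL31 and CDC6 every deletion array lies below every wild-type array.

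Polymerase delta copies the lagging strand. POL31, its essential second subunit, had signals of 46.1 and 44.8 in the deletion strain with salt and 38.9 and 37.9 without, and 60.4 and 66.8 in wild type with salt and 55.1 and 54.3 without. All deletion arrays lay below all wild-type arrays, and within each strain the salt-treated arrays were the higher ones. The salt differences did not pass, at 0.24 in the deletion strain (limma adjusted p = 0.0846) and 0.21 in wild type (adjusted p = 0.121). POL31 was lower in the deletion strain 1.40-fold with salt (log2 -0.48, SE 0.11, adjusted p = 0.0193) and 1.43-fold without salt (-0.51, SE 0.11, adjusted p = 0.0218). The call with salt was lost without the second salt-treated wild-type array or either salt-treated deletion array. It was also lost with median scaling and in the authors' values, and over the 17 alternatives ran from -0.56 to -0.245. The call without salt was lost without either unstressed wild-type array or the second unstressed deletion array. Both calls were lost with normexp background correction.

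POL3, the catalytic subunit of polymerase delta, and POL32, its small non-essential subunit, fell with salt in both strains. POL3 changed by -0.99 in the deletion strain and -0.73 in wild type, and POL32 by -0.80 in the deletion strain and -0.47 in wild type. POL32 was also lower in the deletion strain with salt (-0.57, limma adjusted p = 0.0394), but this was lost under 11 of 17 alternatives, among them quantile scaling, median scaling and the authors' values, where it was -0.13 (adjusted p = 0.368). POL3 was at -0.42 there and did not pass (limma adjusted p = 0.114, and 0.0159 with the replicate block).

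The sliding clamp PCNA, which tethers polymerases to DNA, is encoded by POL30. Its signals were 77.6 and 72.4 in the deletion strain with salt and 264 and 226 without, and 120.3 and 127 in wild type with salt and 313 and 273 without. The groups did not overlap, and the salt-treated deletion arrays were lowest. POL30 fell with salt 3.26-fold in the deletion strain (log2 -1.71, SE 0.13, limma adjusted p = 2.90e-05) and 2.37-fold in wild type (-1.24, SE 0.13, adjusted p = 0.000166). With salt POL30 was 1.65-fold lower in the deletion strain than in wild type (-0.72, SE 0.13, adjusted p = 0.00947). This call was lost without the second salt-treated array of wild type (adjusted p = 0.0601) or of the deletion strain (0.0634), and without salt the difference of -0.26 did not pass.

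The clamp loader RFC opens the clamp and places it on primed DNA. All 5 of its genes fell with salt in the deletion strain, by log2 values from -0.80 in RFC4 to -0.48 in RFC1, and 2 of 5 fell in wild type, RFC5 (-0.54) and RFC1 (-0.43). RFC2, RFC3 and RFC4, small subunits, were also lower in the deletion strain than in wild type with salt, by -0.47, -0.42 and -0.58, calls lost under 10, 9 and 8 of 17 alternatives for RFC2, RFC3 and RFC4. RFC3 had signals of 110.7 and 106.0 in the deletion strain with salt and 161 and 151 without, and 144 and 146 in wild type with salt and 165 and 145 without. Only the salt-treated deletion arrays stood apart in that gene. With the replicate block RFC2 also fell with salt in wild type (limma adjusted p = 0.0323), and RFC1 was lower in the deletion strain with and without salt (adjusted p = 0.0227 and 0.0431).

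The single-strand binding complex RPA coats unwound DNA, and 1 of its 3 genes passed in any comparison. RFA3, the small subunit, fell 1.89-fold with salt in the deletion strain (log2 -0.92, SE 0.21, limma adjusted p = 0.00697). In wild type RFA3 was at -0.56 (adjusted p = 0.0509, and 0.00363 with the replicate block). RFA1, the large DNA-binding subunit, was the highest of the 45 in its wild-type salt difference, at 0.28 (adjusted p = 0.054), and was at 0.05 in the deletion strain. RFA2 passed in no comparison, though with salt its difference between strains of -0.49 passed under the replicate block (adjusted p = 0.0444).

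Of the 6 MCM helicase genes, CDC47 moved most. It had signals of 12.4 and 14.6 in the deletion strain with salt and 26.2 and 33.4 without, and 17.6 and 21.2 in wild type with salt and 31.8 and 39.9 without. Salt-treated and untreated arrays did not overlap in either strain. CDC47 fell with salt 2.20-fold in the deletion strain (log2 -1.13, SE 0.18, limma adjusted p = 0.0014) and 1.85-fold in wild type (-0.88, SE 0.18, adjusted p = 0.00492). With salt its difference between strains was -0.52 (adjusted p = 0.0827, and 0.00681 with the replicate block).

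Of the other MCM genes, MCM6 fell with salt in the deletion strain (-0.57), and was at -0.24 in wild type. MCM3 was lower in the deletion strain than in wild type with salt (-0.50), a call lost under 6 of 17 alternatives, while its salt differences were 0.13 in the deletion strain and 0.24 in wild type and did not pass. MCM2, CDC54 and CDC46 passed in no comparison. Under the replicate block the salt changes of MCM2 and CDC54 passed in both strains, with adjusted p from 0.00774 to 0.0393, and MCM2 was lower in the deletion strain with salt (adjusted p = 0.0368). MCM3 passed under the block without salt (adjusted p = 0.039).

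CDC45, which joins the MCM ring and GINS to make the active helicase, had signals of 13.4 and 12.4 in the deletion strain with salt and 31.7 and 33.1 without, and 22.5 and 26.5 in wild type with salt and 38.8 and 40.5 without. The 4 groups did not overlap. Salt lowered it 2.52-fold in the deletion strain (log2 -1.33, SE 0.12, limma adjusted p = 7.22e-05) and 1.62-fold in wild type (-0.70, SE 0.12, adjusted p = 0.00213). In salt-treated cultures CDC45 was 1.90-fold lower in the deletion strain than in wild type (-0.93, SE 0.12, adjusted p = 0.00321), and without salt it was at -0.29 and did not pass.

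The GINS genes did not move as a unit. PSF2 fell 2.10-fold with salt in the deletion strain (log2 -1.07, SE 0.17, limma adjusted p = 0.00127) and was at -0.35 in wild type. Its signals of 3.84 and 4.43 in the deletion strain with salt and 7.91 and 9.54 without did not overlap, beside 6.26 and 5.50 in wild type with salt and 8.51 and 6.60 without. PSF3 fell in the deletion strain with salt (-0.61). In wild type PSF3 was at -0.30 (adjusted p = 0.245, and 0.025 with the replicate block). SLD5 fell in wild type (-0.46), and was at -0.10 in the deletion strain. PSF1 passed in no comparison.

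ORC marks the origins, and its subunits gave mixed values. ORC3 had signals of 8.56 and 9.04 in the deletion strain with salt and 16.4 and 16.3 without, and 17.3 and 18.9 in wild type with salt and 19.7 and 21.2 without. The salt-treated deletion arrays alone stood far below the rest. ORC3 fell 1.85-fold with salt in the deletion strain (log2 -0.89, SE 0.11, limma adjusted p = 0.000336), while in wild type it was at -0.18 (adjusted p = 0.198). In salt-treated cultures ORC3 was 2.06-fold lower in the deletion strain than in wild type (-1.04, SE 0.11, adjusted p = 0.00173), and without salt it was at -0.33 (adjusted p = 0.0888, and 0.036 with the replicate block).

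ORC1, the ATP-binding large subunit, fell with salt in the deletion strain (-0.96) and in wild type (-0.65), and was lower in the deletion strain with salt (-0.73), a call lost under 10 of 17 alternatives. ORC6 fell in both strains (-0.66 in the deletion strain and -0.46 in wild type). ORC2 fell in the deletion strain (-0.47), and its wild-type value of -0.27 passed only under the replicate block (limma adjusted p = 0.027). ORC4 and ORC5 passed in no comparison, with salt changes from -0.04 to 0.24. Under the replicate block ORC1 was lower in the deletion strain without salt (adjusted p = 0.0461), and ORC5 with salt (adjusted p = 0.0363).

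CDC6, which loads MCM together with ORC, had signals of 5.81 and 5.61 in the deletion strain with salt and 7.99 and 7.29 without, and 9.92 and 11.7 in wild type with salt and 12.2 and 9.91 without. The 4 deletion arrays lay below the 4 wild-type arrays, while salt-treated and untreated wild type overlapped. With salt CDC6 was 1.89-fold lower in the deletion strain than in wild type (log2 -0.92, SE 0.14, limma adjusted p = 0.00601). This did not pass with normexp background correction (adjusted p = 0.282) or in the authors' values, where it was -0.25 (adjusted p = 0.088). Without salt the difference was -0.53 (adjusted p = 0.0528, and 0.0369 with the replicate block). Salt lowered CDC6 1.34-fold in the deletion strain (-0.42, SE 0.14, limma adjusted p = 0.0384). This call was lost under 9 of 17 alternatives. Among them were each fit without 1 of the 4 deletion arrays, quantile scaling and the authors' values. In wild type CDC6 was at -0.03.

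Of the initiation factors, MCM10, which acts in helicase activation, fell 2.07-fold with salt in the deletion strain (log2 -1.05, SE 0.19, limma adjusted p = 0.00251). It was at -0.39 in wild type (adjusted p = 0.117, and 0.029 with the replicate block). With salt MCM10 was also lower in the deletion strain than in wild type (-0.77), a call lost under 8 of 17 alternatives. SLD3, which brings Cdc45 to origins, fell with salt in the deletion strain (-0.38) and was at -0.05 in wild type.

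RAD27, the flap endonuclease that trims Okazaki fragments, had signals of 16.1 and 12.7 in the deletion strain with salt and 39.0 and 37.6 without, and 21.2 and 20.6 in wild type with salt and 37.5 and 40.0 without. The unstressed arrays of the strains overlapped, while the salt-treated ones did not. Salt lowered RAD27 2.67-fold in the deletion strain (log2 -1.42, SE 0.14, limma adjusted p = 9.39e-05) and 1.85-fold in wild type (-0.89, SE 0.14, adjusted p = 0.00113). With salt RAD27 was also lower in the deletion strain than in wild type (log2 -0.55, adjusted p = 0.0287). Of the 8 arrays, that call was kept only without either unstressed deletion array or the first salt-treated deletion array, and was otherwise lost. It was also lost with normexp background correction, quantile scaling and median scaling, and in the authors' values. Over the 17 alternatives the difference ran from -0.72 to -0.23. CDC9, the DNA ligase that seals the trimmed fragments, passed in no comparison, with pairwise log2 differences between -0.24 and -0.17.

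TOF1, a fork-pausing and checkpoint factor, was lower in all 4 pairwise comparisons. Its signals were 12.9 and 13.9 in the deletion strain with salt and 24.8 and 25.5 without, and 26.3 and 31.4 in wild type with salt and 39.0 and 42.5 without. The groups did not overlap, and unstressed deletion cultures lay just below salt-treated wild type. In salt-treated cultures TOF1 was 2.14-fold lower in the deletion strain than in wild type (log2 -1.10, SE 0.13, limma adjusted p = 0.00211). Without salt it was 1.62-fold lower (-0.70, SE 0.13, adjusted p = 0.014), a call lost without either unstressed wild-type array (adjusted p = 0.0572 and 0.0931). TOF1 fell with salt 1.88-fold in the deletion strain (-0.91, SE 0.13, adjusted p = 0.000631) and 1.42-fold in wild type (-0.50, SE 0.13, adjusted p = 0.0112). The wild-type call was lost without the first salt-treated (adjusted p = 0.0772) or the second unstressed wild-type array (0.0742).

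CTF4, which links the helicase to polymerase alpha, was lower in the deletion strain with salt (-0.60), a call lost under 4 of 17 alternatives. Its signals in the deletion strain were 35.9 and 37.7 with salt and 41.8 and 47.1 without. In wild type they were 54.3 and 57.6 with salt and 53.6 and 58.5 without. CTF4 was lower on every deletion array than on any wild-type array. Its salt changes were -0.27 in the deletion strain and 0.00 in wild type. Under the replicate block CTF4 also passed for salt in the deletion strain (limma adjusted p = 0.0255) and for the deletion without salt (adjusted p = 0.0309). CDC21, thymidylate synthase, fell with salt in the deletion strain (-0.80) and was at -0.33 in wild type (adjusted p = 0.0697, and 0.0181 with the replicate block). With salt its difference between strains was -0.42 (adjusted p = 0.0606, and 0.0157 with the replicate block).

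In all, 11 of the 45 genes passed in no comparison: PRI2, DPB3, RFA1, RFA2, MCM2, CDC54, CDC46, PSF1, ORC4, ORC5 and CDC9. The members were also grouped by the time of their peak transcription in an unperturbed cycle, from textbook knowledge. Of 16 G1/S transcripts, 10 fell with salt in the deletion strain (median log2 -0.91) and 7 in wild type (median -0.53). Of 7 transcripts of the M/G1 interval (the MCM2 to MCM7 genes and CDC6), 3 fell in the deletion strain (median -0.42) and 1 in wild type (median -0.24). Of the 22 on neither list, 16 fell in the deletion strain (median -0.62) and 8 in wild type (median -0.30), so genes outside the G1/S list fell too. Whether that list holds every G1/S transcript among the 45 was not tested. Of all tested genes, 29.1% fell with salt in the deletion strain and 25.7% in wild type. Between strains, 9 of 16 G1/S and 2 of 7 M/G1 transcripts were lower in the deletion strain with salt, and 2 and 0 without salt. Of all tested genes, 16.2% were lower there with salt and 6.32% without. The difference between these lists was not tested.

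The members were scattered over 14 of the 16 nuclear chromosomes, with at most 7 on one. By gene order 2 pairs lay side by side, RFC5 with POL30 on chromosome II, and POL2 with ORC5 on chromosome XIV. The neighbours differed in size of change. With salt in the deletion strain POL30 fell by 1.71 and RFC5 by 0.66 on the log2 scale, and POL2 fell by 1.10 while ORC5 was at -0.04.

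A further 49 genes that act beside the machinery were listed, of which 48 were tested, since WHI5 was not well above background on any array. With salt 20 of 48 fell and 5 rose in the deletion strain, where 29.1% of all tested genes fell and 29.3% rose, and 15 fell and 7 rose in wild type, where 25.7% of all tested genes fell and 31.2% rose. Their median log2 change was -0.24 in the deletion strain and -0.21 in wild type. In the deletion strain against wild type, 13 were lower with salt, where 16.2% of all tested genes were lower, and 7 without, where 6.32% were, and 0 were higher in either. For 0 of the 48 did the interaction pass in limma, and 7 (14.6%) had an unadjusted p under 0.05, all more negative in the deletion strain. At that threshold 9.9% of all tested genes were more negative there and 2.21% more positive. CLB6 was among the 7, though it was not well above background on the salt-treated deletion arrays.

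Among the nucleotide supply genes, RNR1, the main large subunit of ribonucleotide reductase, had signals of 55.2 and 78.5 in the deletion strain with salt and 362 and 426 without, and 189 and 279 in wild type with salt and 502 and 518 without. Its groups did not overlap. RNR1 fell with salt 5.97-fold in the deletion strain (log2 -2.58, SE 0.23, limma adjusted p = 6.5e-05) and 2.22-fold in wild type (-1.15, SE 0.23, adjusted p = 0.00412), and with salt it was 3.49-fold lower in the deletion strain than in wild type (adjusted p = 0.00276). DUT1, which removes dUTP, fell in both strains (-1.24 in the deletion strain and -1.02 in wild type). RNR3, the damage-inducible large subunit, rose with salt in the deletion strain (0.93). Both other members of ribonucleotide reductase on the list, RNR2 and RNR4, passed in neither strain.

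Of 9 genes of chromatin assembly and cohesion, 6 fell with salt in the deletion strain and 3 in wild type, and 6 were lower in the deletion strain with salt. Of all tested genes, 29.1% fell and 29.3% rose with salt in the deletion strain, and 25.7% fell and 31.2% rose in wild type. With salt 16.2% of all tested genes were lower in the deletion strain. SMC3, a cohesin subunit, fell in the deletion strain (-2.02) and in wild type (-1.69). MCD1, the cohesin subunit made anew in each cycle, fell in the deletion strain (-1.41) and was lower there than in wild type with salt (-1.30) and without salt (-0.45). Of 21 initiation and fork factors, 8 fell and 3 rose in the deletion strain, and 5 fell and 4 rose in wild type. The shares of these small lists were not tested against those of all genes. CTF18, part of an alternative clamp loader, fell in the deletion strain (-1.05) and was lower there than in wild type with salt (-1.01). RNH201, a ribonuclease H subunit, fell in the deletion strain (-0.84) and in wild type (-0.76). CSM3, the partner of TOF1, was lower in the deletion strain with salt (-0.78) and without salt (-0.46), as were CAC2 of the chromatin assembly factor (-0.45 and -0.38) and, without salt, the initiation factor DPB11 (-0.69). RLF2, another chromatin assembly subunit, was lower in the deletion strain with salt (-0.62). Of 4 translesion polymerase genes, 1 fell and 1 rose with salt in the deletion strain, and 1 fell and 2 rose in wild type, where REV3, the catalytic subunit of polymerase zeta, rose by 1.00 on the log2 scale.

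Of 7 tested G1/S regulators and S-phase cyclins, 3 fell and 0 rose with salt in the deletion strain, and 4 fell and 1 rose in wild type. The gene that rose was SWI4, the DNA-binding subunit of SBF (0.43), named after its value was seen. In the deletion strain against wild type 2 were lower with salt and 3 without. Of all tested genes, 29.1% fell and 29.3% rose with salt in the deletion strain, and 25.7% fell and 31.2% rose in wild type. The share of all tested genes lower in the deletion strain was 16.2% with salt and 6.32% without. NRM1, a G1/S co-repressor that is itself a G1/S transcript, fell with salt in the deletion strain (-1.65) and in wild type (-1.86), and was lower in the deletion strain without salt (-0.61). CLB6, an S-phase cyclin, had signals of 0.674 and 1.18 in the deletion strain with salt and 6.34 and 4.88 without, and 5.65 and 7.76 in wild type with salt and 14.2 and 14.3 without. It was well above background on 0 of 2 deletion arrays with salt, so changes involving that group are bounds against the dimmest probe well above background. CLB6 fell at least 2.05-fold with salt in the deletion strain, and with salt the deletion strain was lower than wild type at least 2.44-fold. These bounds were not tested. The limma calls (adjusted p = 0.000158 and 0.00119) used the signals as measured, with those not well above background. In wild type CLB6 fell 2.15-fold with salt, and without salt it was lower in the deletion strain (limma adjusted p = 0.0215), where 1 of the 2 arrays measured it well above background. CLB5, the other S-phase cyclin, had signals of 25.9 and 4.99 in wild type with salt, against 40.2 and 43.0 without, and was well above background on 1 of the 2 salt-treated arrays (limma adjusted p = 0.0365). STB1, a G1/S regulator, was lower in the deletion strain with salt (-0.86) and without salt (-1.14). The part of the cell cycle stage in the changes of the 45 genes was not tested.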

How the data were processed

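Total RNA of 8 cultures was hybridised to single-colour Agilent arrays on 1 slide. Per the file headers, Agilent Feature Extraction 10.7.3.1 read the spots, and the deposited processed intensity was background-subtracted within its array. The authors' deposited value table holds log2 values of 6187 probes with column medians of 10.55 to 10.57. Its normalization is not stated. It correlated with its arrays' log2 median signals at r = 0.987 to 0.997, 7 of 8 columns correlated best with their own array (not that of the second salt-treated wild-type array), and the direction of every column was that of its scanner file. The submitters' processing notes name limma.

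Groups came from the sample labels. Of 12512 non-control spots per array, 86 outlier-flagged spots over all arrays were left out. Log2 processed intensity minus the array's 75th percentile (2740 to 4290) was averaged over the spots of a probe. The number of arrays limits the precision. A gene was tested if 1 group or more had its probe well above background on both arrays (5394 genes), with limma 3.58.1 in R 4.3.3 (lmFit on 4 group means, 4 residual degrees of freedom, eBayes) and Benjamini-Hochberg adjustment over all of them per comparison. The procedure was tested on simulated data. SE is limma's moderated standard error. Gene names came from the RefSeq R64 table, which matched 5748 of 6256 probes, and 508 were not matched.

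The labels number the replicates in each group. Deviations of same-numbered cultures from their group means correlated at r = 0.176 to 0.422 in all 6 pairs of groups. The block on replicate number was therefore treated as a pairing, and its value is given where it changes a call. The main counts, SE and p-values came from the fit without the block. Replicate 1 lay in slide columns 1 and 3 and replicate 2 in columns 2 and 4, so replicate number and column cannot be told apart. The labels do not say what a number marks. The members and lists were chosen with earlier results of these data known. Genes given with all 8 signals were, per comparison, the up to 6 largest changes that passed (CTF4, RFC3 and PSF2 were added after their values were seen), and the named other genes were the up to 8 largest per comparison. The alternatives were normexp, quantile and median scaling, other filters on dim probes, the authors' values, probe averaging, an intensity trend, the block, and each array left out. Promoter motifs were not analysed here.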

Additional observations from a re-analysis of the deposited data

How the results depend on the processing

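All 5 comparisons were recomputed under 17 alternative settings, and for each the median of the 45 genes lay below the median of all tested genes in 17 of 17. The 17 are not independent checks. Median scaling, the replicate block and the intensity trend cannot change this difference, nor can leaving out an array outside the comparison. No gene of the 45 that passed changed sign. The member counts moved as follows, as genes lower. With salt in the deletion strain (29) the counts ran from 22 to 32, and in wild type (16) from 8 to 25. For the deletion with salt (20) they ran from 1 to 27, for the deletion without salt (3) from 0 to 11, and for the interaction (0) from 0 to 2. Leaving out 1 array each gave 22 to 30, 8 to 20, 5 to 22, 0 to 5 and 0, with 0 to 1 higher for salt in wild type and medians of -0.71 to -0.52, -0.33 to -0.26, -0.51 to -0.41, -0.26 to -0.16 and -0.29 to -0.21. The lone array of such a group is assumed to vary like the other groups.

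Normexp background correction, on median signals because mean signals are not in the files used here and chosen after seeing the data, gave 9 genes lower in wild type, 0 for the deletion without salt and 1 with salt, with medians in the order above of -0.70, -0.27, -0.40, -0.017 and -0.39. Quantile scaling gave 25 in wild type and 12 for the deletion with salt, each with 1 gene higher (RFA1 and SLD5), and medians of -0.58, -0.45, -0.26, -0.20 and -0.13. Median scaling gave 24 in wild type and 8 for the deletion with salt, and medians of -0.44 for salt in wild type, -0.28 and -0.18 for the deletion with and without salt, and -0.17 for the interaction. The authors' values gave 24 in wild type, 13 for the deletion with salt, 6 without salt and 1 gene higher (RFA1) in wild type, with medians of -0.42, -0.20, -0.14 and -0.11 for salt in the deletion strain, the deletion with and without salt, and the interaction. The intensity trend gave 1 gene higher in wild type (RFA1). The replicate block gave 25 lower and 1 higher in wild type, 11 lower and 1 higher for the deletion without salt, and 2 for the interaction. It gained 31 calls among the 225 tests of members, lost 0 and changed no other call. The cause of these changes was not tested.

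Over all genes the split of calls moved with the setting. With salt in the deletion strain, 1582 rose and 1567 fell, against 790 and 1429 with normexp. For the deletion without salt 397 were higher and 341 lower, against 167 and 23 with normexp. For the deletion with salt the quantile split was 424 and 564 and that of the authors' values 549 and 627. Over all 17 settings the counts of all genes higher and lower ran from 790 to 1815 and 1245 to 1802 with salt in the deletion strain, 1020 to 1936 and 1017 to 1636 in wild type, 83 to 605 and 260 to 1241 for the deletion with salt, 167 to 700 and 23 to 695 without salt, and 0 to 34 and 1 to 123 for the interaction.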
